A study of Mus musculus with 36 samples.

Results

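The 50 genes described here encode proteins of the cell cycle and of DNA replication, and they were followed in mouse natural killer (NK) cells, lymphocytes that kill cells lacking self MHC class I. A gene was taken by its symbol, which had to be present in all 4 deposited expression tables, and 50 of 50 listed symbols were found, among 32940 gene rows in 1 table and 56923 in each of the other 3. Within a table a gene was tested when its mean was at least 1 TPM, a unit that corrects reads for gene length and for the size of the library. That left 45 of the 50 in the table of spleen subsets, 48 in the ionomycin table, and 50 in both the antibody and the tumour table. Cdc6, Mcm10, Ccne2, Bub1 and Kif2c were below that level in the subset table, and Kif2c and Cenpf in the ionomycin table. Cells that prepare to divide first load the MCM helicase onto replication origins, then copy DNA with the sliding clamp PCNA and a supply of deoxynucleotides, and finally separate chromosomes under the control of cyclin-dependent kinase 1, Aurora and Polo-like kinases and the spindle checkpoint. Most of the genes are transcribed in waves, at the G1 to S transition under E2F factors and in G2 and mitosis under the DREAM and B-MYB-FOXM1 complexes. Resting mature NK cells of the spleen divide little, and activating signals and cytokines can bring them into cycle.

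RNA was sequenced from 36 libraries in 12 groups of 3. Mature splenic NK cells without CD27 and with CD11b were sorted from wild-type (WT, B2m+/+, C57BL/6) mice and from B2m-/- (KO) mice, in which MHC class I is largely missing from cell surfaces. TP cells carried the inhibitory receptors Ly49C, Ly49I and NKG2A, SP cells carried Ly49I alone, and TN cells carried none of the 3. In the culture experiments, NK cells were taken from splenocytes of WT mice. The shorter culture lasted 22 h, with ionomycin, an ionophore that lets calcium into cells, or with its vehicle. The longer lasted 48 h, in medium or on plates coated with antibodies against NKp46 plus NKG2D, or against NKp46 plus DNAM-1. NKp46, NKG2D and DNAM-1 are activating receptors of NK cells. NK cells without CD27 and with CD11b also came from B2m-/- MC38 tumours, a mouse colon carcinoma line, grown under the skin of WT mice for 10 days. The ages and sexes of the mice are not given in the sources used here, and replicates are called biological in the titles. In 6 of the 9 antibody libraries the title and the named table column give different treatments, and the columns were followed. The tumour columns carry the terms B2MKO and SP, which the titles do not explain. The labels give 1 batch date per table, and no comparison crosses tables.

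The 6 NK markers (Ncr1, Klrb1c, Nkg7, Eomes, Klre1 and Prf1) summed to between 8713 and 10086 TPM in the subset libraries and between 3171 and 6438 TPM in the others. Markers of other cell types differed between groups and libraries, and those that move with a result stand beside it. The 7 neutrophil and precursor markers summed to 61.0, 104.1 and 218 TPM in KO TP and to at most 5.8 TPM in the other subset libraries, and to 349 TPM in vehicle replicate 3 and 119.3 TPM in ionomycin replicate 3 against at most 2.2 TPM in the other 4 libraries of that table. The 7 B and plasma cell markers summed to 334 to 517 TPM in KO TP against 167 to 327 TPM in the other subsets. Genes listed above 0 ran from 12290 to 18096 per library, and sequencing depth is unknown.

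Promoter sequences show what many of the 50 genes share outside these measurements. RefSeq promoters on build GRCm38.p6, which differs from the GRCm39 build named in the submitters' processing notes, were matched by symbol for 40 of the 50 genes, with 43 entries. The 250 bases before the start were searched on both strands for 3 motifs: the CCAAT box (CCAAT, bound by NF-Y), the core of the cell cycle homology region (CHR, TTTGAA or TTCGAA, bound by DREAM and B-MYB complexes) and an E2F core (TTTCCCGC, TTTGGCGC, TTTGCCGC or TTTCGCGC). A CCAAT box was in 34 of the 43 entries (79.1%) against 33.8% of all 32851 promoters, a CHR core in 14 (32.6%) against 17.1%, and an E2F core in 6 (14.0%) against 1.9%. These matches are descriptions of letters and not binding sites. The stretches below end at the start site or at the most upstream annotated exon, read 5′ to 3′ on the gene's strand, with motif matches in capitals. Mcm6 (chr1:128359706-128359855, minus strand) is shown because it was called in 2 experiments, and it holds 3 E2F matches, of which 2 overlap, and 2 CCAAT boxes. Cenpa (chr5:30666636-30666776, plus strand) was called together with Mcm6, and its 141 bases, which end 109 bases before the start, hold none of the motifs, although CCAAT boxes lie closer to the start within the 250 bases searched. Mki67 (chr7:135716380-135716529, minus strand), called between subsets, holds 2 CHR cores and 1 CCAAT box. Cdk1 (chr10:69352939-69353088, minus strand, ending 26 bases before the start), Ccnb2 (chr9:70421555-70421704, minus strand) and Top2a (chr11:99024190-99024339, minus strand) are mitotic genes that had higher values with antibodies. Cdk1 holds a match of each kind, Ccnb2 holds 3 CCAAT boxes and has a CHR core further upstream among the bases searched, and Top2a holds 4 CCAAT boxes and 3 CHR cores.
Mcm6: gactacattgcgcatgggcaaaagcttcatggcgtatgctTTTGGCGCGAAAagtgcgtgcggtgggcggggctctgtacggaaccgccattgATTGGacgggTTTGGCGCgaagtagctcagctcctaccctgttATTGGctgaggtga
Cenpa: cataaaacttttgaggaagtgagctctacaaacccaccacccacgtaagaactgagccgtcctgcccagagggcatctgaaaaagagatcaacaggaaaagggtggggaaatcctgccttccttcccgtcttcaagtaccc
Mki67: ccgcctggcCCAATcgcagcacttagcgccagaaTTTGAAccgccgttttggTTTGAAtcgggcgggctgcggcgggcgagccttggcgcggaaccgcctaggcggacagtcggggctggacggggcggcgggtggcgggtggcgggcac
Cdk1: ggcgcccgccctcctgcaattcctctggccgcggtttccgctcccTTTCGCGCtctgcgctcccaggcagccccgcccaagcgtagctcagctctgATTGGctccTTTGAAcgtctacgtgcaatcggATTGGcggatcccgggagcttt
Ccnb2: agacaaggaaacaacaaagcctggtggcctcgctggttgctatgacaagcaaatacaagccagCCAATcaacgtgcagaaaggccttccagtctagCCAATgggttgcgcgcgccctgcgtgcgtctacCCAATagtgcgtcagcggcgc
Top2a: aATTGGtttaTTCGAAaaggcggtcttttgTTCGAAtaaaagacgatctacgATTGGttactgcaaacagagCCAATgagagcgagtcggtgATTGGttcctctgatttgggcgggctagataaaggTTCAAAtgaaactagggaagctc

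Within each table the summed level shows how far the groups lay apart. The summed level of the 50 genes was 940 ± 49.1 TPM in WT TP, 816 ± 21.0 TPM in WT SP and 801 ± 19.1 TPM in WT TN (SD, n = 3 here and below). KO subsets lay between 836 ± 26.4 TPM in TN and 899 ± 21.2 TPM in TP. Vehicle cultures summed to 1079 ± 76.5 TPM and ionomycin cultures to 1642 ± 151 TPM, but without Mcm6 and Cenpa the order turned, with 830 ± 109 TPM for vehicle and 723 ± 30.3 TPM for ionomycin. In the antibody experiment the 3 medium libraries summed to 992.5, 1791 and 2860 TPM, those with antibodies to NKp46 and NKG2D to 2746, 3222 and 5083 TPM, and those with antibodies to NKp46 and DNAM-1 to 3337, 3639 and 5364 TPM. The medium libraries thus differed among themselves almost as much as the group means did, and the third medium library lay above the lowest library of the NKG2D group. In bulk RNA, fewer dividing cells and less of each transcript per cell cannot be told apart.

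**Figure D1:**
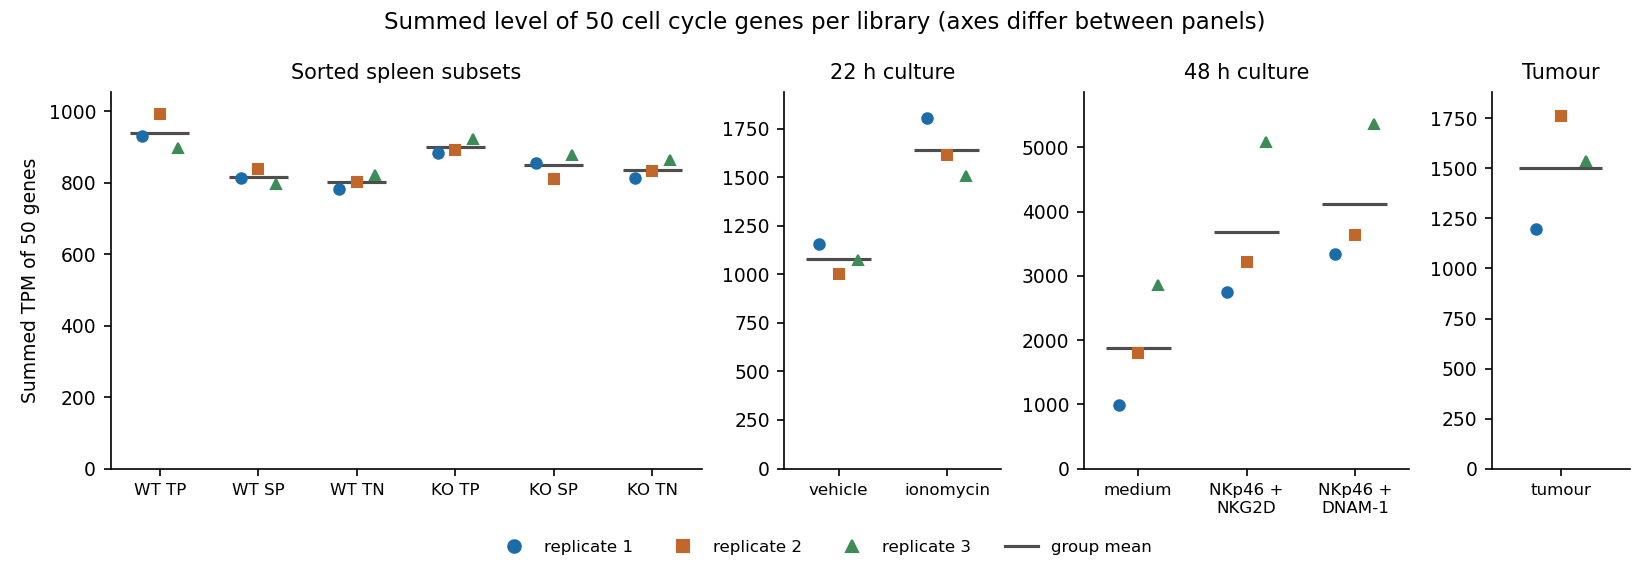
Summed TPM of the 50 genes in each library (y axis, linear from 0, with a scale of its own in each panel) by group (x axis), with points for the 3 replicates and a bar for the group mean. WT TP libraries lie between 896 and 993 TPM, above the 6 other WT libraries, and the antibody libraries of replicate 3 are the highest of their groups.

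TN were compared with TP cells of WT mice to ask whether mature NK cells without self-specific inhibitory receptors differ from cells that carry them. Mki67, which encodes the proliferation marker Ki-67, was the only one of the 45 tested genes that changed, and it was lower in TN cells. Its level was 12.6, 12.4 and 11.5 TPM in WT TP, 4.63, 6.42 and 2.85 TPM in WT SP and 1.94, 4.62 and 4.06 TPM in WT TN. The WT TP libraries lie close together and above each of the other WT libraries. On the log2(TPM + 1) scale, which understates the changes of low genes, Mki67 fell by 1.59 (SE 0.334, limma, adjusted p = 0.0228), in a table where 1.31% of 12018 genes were called at an adjusted p under 0.05. The call was lost without WT TN replicate 1 (adjusted p = 0.0827) and without each of the WT TP libraries (0.063 to 0.0788), and with only these 2 groups in the fit (0.238). The B and plasma cell markers summed to 281 to 327 TPM in WT TN against 167 to 181 TPM in WT TP, and the 5 macrophage and monocyte markers to 0.3 to 7.4 TPM against 11.6 to 14.6 TPM. Of the 7 B and plasma cell markers, 4, 2 and 5 were above 0 in the WT TN libraries and 7, 5 and 6 in WT TP. Such counts cannot weigh the difference in the sums, because sequencing depth is unknown. The part of either marker group in these results was not tested.

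Around Mki67, most of the group had lower values in TN than in TP cells, without passing the test. Over all 50 genes with no filter on low values, 39 had a negative log2 change and the median was -0.59. Of the 45 tested genes, 13 had an unadjusted p under 0.05 and a lower value (6.86% of all tested genes did), and 13 had lower values with no overlap between the groups (7.95% of all tested genes). Ube2c, Kif11, Kif4, Nusap1, Cenpe and Cenpf passed the filter only because of their level in WT TP, so that a lower value elsewhere was built into their selection. Both counts of 13 were taken over all 45 tested genes, with these included, and the count without overlap is not given without them. Among the 39 other genes, 28 had a negative change, 9 of them at an unadjusted p under 0.05, and the median was -0.37 against -0.01 over all tested genes. By role, 5 of the 5 spindle and cytokinesis genes outside that set had a negative change, with a median of -0.49 (-0.95 with the others). The 11 genes of origin licensing and the replication fork had a median of -0.11. The 2 checkpoint and anaphase-promoting complex genes outside that set, Bub1b (0.78) and Cdc20 (0.30), had positive changes. Medians of the remaining roles outside that set ran from -0.96 to -0.54. The roles were not tested against each other. Ube2c, the ubiquitin-conjugating enzyme of the anaphase-promoting complex, was at 4.39, 6.95 and 2.30 TPM in WT TP and 0, 0 and 0.20 TPM in WT TN (log2 change -2.29, limma adjusted p = 0.0546). Kif11, the spindle motor Eg5, was at 3.55, 5.39 and 2.94 TPM in WT TP and 0.07, 0.46 and 0.90 TPM in WT TN (-1.76, limma adjusted p = 0.0649). Both were below every TP library in TN, at levels near the lower end of what these tables list. With no filter on low values, Ube2c and Kif11 were called lower (limma adjusted p = 0.0411 and 0.0222) and Mcm6 higher (0.40, adjusted p = 0.0446), where 0.724% of all genes were called.

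The other fixed genes showed how uneven the levels were between subsets. Top2a, the topoisomerase that untangles replicated DNA, was at 18.9, 10.7 and 13.8 TPM in WT TP, 6.49, 7.62 and 11.7 TPM in WT SP and 9.05, 3.12 and 8.34 TPM in WT TN. KO cells had 13.4, 7.60 and 6.40 TPM of Top2a in TP, 4.43, 3.04 and 9.07 TPM in SP and 5.15, 5.91 and 5.26 TPM in TN. TP and TN of WT mice did not overlap for Top2a, but its adjusted p was 0.264 in limma. Stmn1, the microtubule regulator stathmin, was at 71.6, 78.4 and 88.9 TPM in WT TP, 53.6, 35.8 and 68.1 TPM in WT SP and 51.5, 63.2 and 54.7 TPM in WT TN. In KO cells Stmn1 was at 45.0, 53.0 and 84.3 TPM in TP, 51.6, 44.6 and 67.8 TPM in SP and 52.8, 55.3 and 54.0 TPM in TN. WT TP was above the other WT subsets for Stmn1, and the KO subsets overlapped. Pcna, the clamp that tethers DNA polymerases, was abundant and even, at 145 ± 7.36 TPM in WT TP, 130 ± 16.4 TPM in WT SP, 129 ± 0.883 TPM in WT TN, 149 ± 6.16 TPM in KO TP, 147 ± 11.4 TPM in KO SP and 141 ± 10.9 TPM in KO TN. The libraries ran from 111 to 157 TPM. Mcm5, a subunit of the replicative helicase, ran from 30.2 TPM in WT TN replicate 2 to 68.9 TPM in KO TP replicate 1, with 49.3, 62.3 and 47.2 TPM in WT TP, 48.6, 48.2 and 53.1 TPM in WT SP, 56.2, 30.2 and 38.4 TPM in WT TN, 68.9, 57.2 and 42.9 TPM in KO TP, 50.4, 45.5 and 55.5 TPM in KO SP and 43.2, 52.0 and 56.9 TPM in KO TN. Several groups overlapped for both genes, and neither was called in any comparison of subsets. Ccnb1, the mitotic cyclin B1, was erratic, at 3.53, 0.33 and 1.73 TPM in WT TP, 0, 9.74 and 0 TPM in WT SP, 3.47, 7.75 and 0 TPM in WT TN, 0.42, 1.19 and 1.36 TPM in KO TP, 1.97, 2.40 and 1.06 TPM in KO SP and 1.01, 13.0 and 1.57 TPM in KO TN. Single libraries set its group means, so no order can be read from them. A row for a Ccnb1 pseudogene was at most 0.37 TPM in the libraries of the 4 tables.

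In WT mice none of these genes passed the test between SP cells and either of the other subsets. SP against TP called 0 of 45 (limma, 0.191% of all tested genes), with 12 lower and 0 higher at an unadjusted p under 0.05, against 4.03% of all tested genes lower. Without the 6 genes that passed the filter only through WT TP, 9 of 39 were lower at that p. The smallest p values belonged to Mki67 (log2 change -1.27, adjusted p = 0.229), the spindle factor Tpx2 (-1.70, adjusted p = 0.420) and Kif11 (-1.31, adjusted p = 0.421), the last of which is 1 of those 6. TN against SP called 0 of 45 (limma, 0.383%), with 3 at an unadjusted p under 0.05 (12.1% of all tested genes), and Mcm6 (0.30), Ccnb2 (-1.35) and Tpx2 (1.26) had the smallest p values, with adjusted p from 0.230 to 0.379.
Among KO mice, TN against TP called 0 of 45 (limma, 0.524%), with 0 at an unadjusted p under 0.05 (6.43% of all tested genes), and Mybl2 (-1.07), Bub1b (-0.75) and Mki67 (-0.57) had the smallest p values. SP against TP called 0 (limma, 0.2%), with 5 lower at an unadjusted p under 0.05 (1.54% of all tested genes), led by Bub1b (-1.02), Mki67 (-0.79) and Ccne1 (-0.80). TN against SP called 0 (limma, 0.0416%), with 1 at an unadjusted p under 0.05 (2.77% of all tested genes), Ccne1 (0.96), followed by Tpx2 (-0.71) and Kif11 (0.52). Whether the subsets differed more in WT than in KO mice was tested as an interaction, and limma called 0 of 45 genes for TN against TP (0.025%) and 0 for SP against TP (0.0166%), with 9 and 3 at an unadjusted p under 0.05 (6.27% and 4.41% of all tested genes). Mki67 had an interaction of 1.01 for TN against TP (SE 0.473, limma adjusted p = 0.781), so its fall in WT TN cells was not shown to differ from the values in KO cells, 5.80, 5.08 and 3.45 TPM in TP, 2.19, 2.28 and 2.44 TPM in SP and 3.58, 2.83 and 2.18 TPM in TN. Mcm6 (-0.56), Kif4 (2.26) and Bub1b (-1.53) had the smallest p values for TN against TP, and Tyms (1.83), Kif20a (2.07) and Ccne1 (-1.11) for SP against TP. Kif4 is 1 of the 6 genes that passed the filter only through WT TP, a selection that favours a positive interaction. The counts of 9 and 3 were taken over all 45 tested genes, with those 6 included.

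Between genotypes, which asks what lack of MHC class I does to each subset, Mcm6 and Bub1b were the genes that changed. Mcm6, another helicase subunit, was higher in KO than in WT TP cells, at 121, 109 and 137 TPM against 76.9, 73.4 and 85.0 TPM (log2 change 0.63, SE 0.102, limma, adjusted p = 0.00255), where 1.59% of all tested genes were called. The groups did not overlap, and the call remained without each library in turn, but not with only these 2 groups in the fit (adjusted p = 0.111). Mcm6 was at 108, 109 and 109.6 TPM in KO SP against 87.3, 84.5 and 80.7 TPM in WT SP (0.37, limma adjusted p = 0.0988), and at 116, 102 and 109 TPM in KO TN against 113, 99.9 and 99.2 TPM in WT TN. The SP groups did not overlap and the TN groups did. KO TP also had the neutrophil and B cell marker sums given above and a macrophage marker sum of 23.2 to 53.9 TPM against 11.6 to 14.6 TPM in WT TP. T cell markers summed to 12.5 to 17.6 TPM in KO TP against 3.4 to 5 TPM in WT TP. The part of these marker groups in the results of KO TP was not tested. In TP, 9 genes were lower in KO at an unadjusted p under 0.05 (4.58% of all tested genes), or 7 of 39 without the 6 genes that passed the filter only through WT TP, and Mki67 had a log2 change of -1.21 (limma adjusted p = 0.0948).
Bub1b encodes the checkpoint kinase BUBR1, which holds back anaphase. It was at 2.00, 3.43 and 2.68 TPM in WT SP and 0.24, 0 and 0.03 TPM in KO SP, and it fell by 1.75 (SE 0.405, limma, adjusted p = 0.0398), with 1.35% of all tested genes called. In TN it was at 7.15, 7.14 and 3.34 TPM in WT and 0, 0.27 and 0.76 TPM in KO, and it fell by 2.34 (SE 0.405, limma, adjusted p = 0.00803), with 0.716% of all tested genes called. TP cells had 2.83, 2.24 and 3.6 TPM in WT and 1.02, 0.91 and 1.77 TPM in KO. No KO library reached the lowest WT library of its subset. The KO means of Bub1b were 0.09 TPM in SP, 0.34 TPM in TN and 1.23 TPM in TP. Bub1b thus passed the filter of 1 TPM largely through WT cells, a selection that favours a lower value in KO. The KO values are near the lower end of what these tables list. The call in SP was lost without any of the 3 KO SP libraries and without WT SP replicate 2 or 3 (adjusted p from 0.0808 to 0.145), and the call in TN remained without each library but not with only the compared groups in the fit (0.192). Bub1b lies on chromosome 2, 3.55 Mb from B2m in the GENCODE M21 annotation on GRCm38, and Nusap1, which was not called, lies 2.53 Mb from it. Of 103 tested genes within 5 Mb of B2m, 5 passed the test in TP (4.85%), 6 of them in SP (5.83%) and 5 in TN (4.85%). The loss of B2m and a difference of the surrounding chromosome between the mice cannot be told apart.

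**Figure D2:**
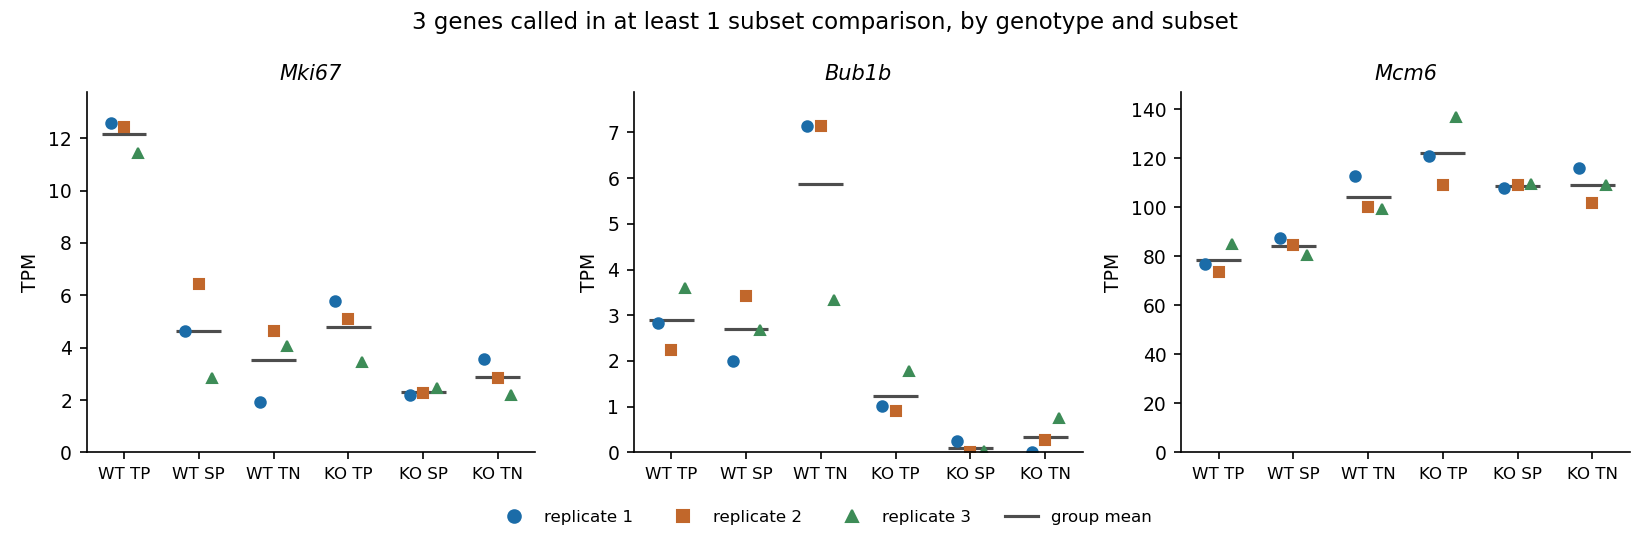
TPM (y axis, linear from 0) of Mki67, Bub1b and Mcm6 in the 6 groups of genotype and subset (x axis), with points for the 3 replicates and a bar for the group mean. Mki67 is highest in WT TP, Bub1b is at most 1.77 TPM in KO libraries, and Mcm6 is at least 101.7 TPM in KO libraries and at most 87.3 TPM in WT TP and SP.

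Of these genes, 2 rose with ionomycin after 22 h and none fell past the test's threshold. Mcm6 was at 302, 347 and 299.7 TPM with ionomycin and 66.3, 89.4 and 96.8 TPM with vehicle, a rise of 1.91 on the log2 scale (SE 0.221, limma, adjusted p = 0.00489). Cenpa, the histone H3 variant that marks centromeres, was at 746, 561 and 503 TPM with ionomycin and 136, 162 and 195 TPM with vehicle, a rise of 1.87 (SE 0.230, limma, adjusted p = 0.00591). For both, the lowest ionomycin library was far above the highest vehicle library, in a comparison where 2.91% of 14372 genes were called. Both calls were lost without any 1 of the 3 ionomycin libraries and without vehicle replicate 2, with adjusted p from 0.0715 to 0.105, while the changes stayed between 1.71 and 1.99. With the variance trend left out of limma, Cenpa had an adjusted p of 0.0552. The neutrophil marker sums were high in replicate 3 of each group, and without vehicle replicate 3 Mcm6 and Cenpa were again called, among 3 of the 50 genes. T cell markers summed to 12.8 to 25.3 TPM with ionomycin and 2.2 to 7.9 TPM with vehicle, and the part of either marker group in the results was not tested.

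The other tested genes had changes in both directions, and SEs such as 0.958 for Cdk1 leave sizeable changes undetected. None of the other 46 was called, 5 of the 48 had an unadjusted p under 0.05 (15.1% of all tested genes), and the median change was 0.07 against 0.00 over all tested genes, with 27 positive and 21 negative values. Over all 50 genes with no filter, 28 had a positive change. Cdc6, Mcm10, Ccnb2, Ube2c and Kif11 passed the filter only through the group in which they were higher. The checkpoint and anaphase-promoting complex genes (Bub1, Bub1b, Cdc20 and Ube2c) were positive in 4 of 4. Their median was 1.21, or 0.81 without Ube2c. They summed to 34.8, 16.8 and 13 TPM with ionomycin against 7, 6.3 and 7.5 TPM with vehicle. These sums include Ube2c, which was listed at 0 TPM in each vehicle library. None of the 4 genes had an unadjusted p under 0.05. The proliferation marker and regulators were positive in 0 of 4, with a median of -0.82, and the deoxynucleotide genes in 1 of 4, with a median of -0.51. The remaining roles had medians from -0.08 to 0.91, and the roles were not tested against each other. Gins1, a subunit of the replicative helicase, had a change of 2.12 (limma adjusted p = 0.280) and Mybl2 one of -1.65 (adjusted p = 0.321). Mcm5 was at 24.1, 22.2 and 32.7 TPM with ionomycin and 39.3, 38.9 and 38.5 TPM with vehicle, groups that did not overlap in the direction opposite to Mcm6, with no call. Mki67 was at 15.2, 2.06 and 2.84 TPM with ionomycin and 10.9, 9.11 and 7.41 TPM with vehicle, and Top2a at 28.9, 8.61 and 4.86 TPM against 17.8, 10.7 and 18.2 TPM. In both genes the first ionomycin library was the highest of the 6 and the other ionomycin libraries were below each vehicle library. Pcna was at 182, 210 and 121 TPM with ionomycin and 366, 276 and 130 TPM with vehicle. Ccnb1 was at 2.31, 2.92 and 0.74 TPM against 0, 1.18 and 9.12 TPM, and Stmn1 at 29.5, 27.1 and 44.7 TPM against 9.97, 13.7 and 34.6 TPM. The groups overlapped for these 3 genes. Cdk1 was at 24.1, 12.1 and 14.6 TPM with ionomycin and 0.45, 0.07 and 13.6 TPM with vehicle (2.61, limma adjusted p = 0.240), so that 1 vehicle library lay within the ionomycin range.

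**Figure D3:**
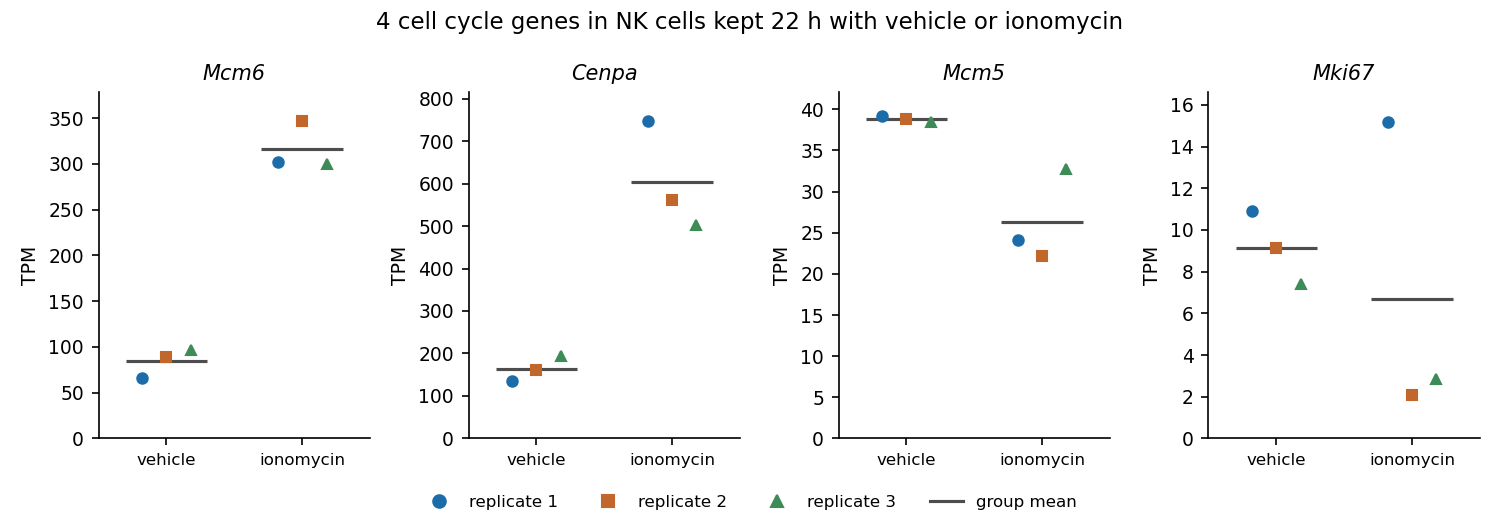
TPM (y axis, linear from 0, with a scale of its own in each panel) of Mcm6, Cenpa, Mcm5 and Mki67 with vehicle or ionomycin (x axis), with points for the 3 replicates and a bar for the group mean. The groups are far apart for Mcm6 and Cenpa, which were called, and lie the other way round for Mcm5.

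Both antibody pairs gave higher values for nearly the whole group than medium did, with large differences between libraries of 1 treatment. These comparisons ask how NK cells respond to engagement of 2 activating receptors, and both use the same 3 medium libraries. With antibodies to NKp46 and NKG2D, 49 of 50 genes had a positive log2 change with a median of 1.20, against -0.04 over all tested genes. With antibodies to NKp46 and DNAM-1, 50 of 50 were positive and the median was 1.39, against -0.04. Limma without a block called 0 of 50 in either comparison, where 0.431% and 0.782% of 13689 genes were called. At an unadjusted p under 0.05, 33 genes were higher in the first comparison (6.88% of all tested genes) and 41 in the second (8.5%), and 0 were lower. The antibody and medium libraries did not overlap for 19 genes (7.5% of all tested genes) and 37 genes (9.46%).
Some of the spread went with the number of the library. Over the 50 genes, deviations from the group means had a mean correlation of 0.228 between same-numbered libraries (lowest pair -0.314) and -0.115 between others. Over all tested genes the means were 0.064 and -0.032. Column names such as WT1_medium read as 1 mouse per number, although the labels do not state it, and each library numbered 3 had the highest sum of its group. Compared with the medium library of its own number, 44 of 50 genes were higher in 3 of 3 libraries with NKp46 and NKG2D antibodies (14.7% of all tested genes) and 49 with NKp46 and DNAM-1 antibodies (16.2%). With the number as a block, limma called 20 genes higher in the first comparison (0.986% of all tested genes were called higher) and 25 in the second (2.02%), and 0 lower in both. The 20 were among the 25. These calls needed all 3 numbers: with the libraries of any 1 number left out, an alternative chosen after seeing the data, the blocked fit called 0 in both comparisons, with 36 to 43 of the 50 at an unadjusted p under 0.05. Without the block but without the third medium library, the highest of its group in summed level, 6 and 17 genes were called. With groups taken from the titles, 0 genes were called in either comparison, and 1 and 19 had an unadjusted p under 0.05. For the fits with libraries left out or regrouped, the shares of all tested genes are not given here. Those counts therefore cannot be set against the whole table.

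The genes that rose in the blocked fit in both comparisons came from each role. They were Mki67, the replication genes Cdc6, Mcm2, Mcm7 and Pcna, the ribonucleotide reductase subunit Rrm1, the cyclins Ccna2, Ccnb1, Ccnb2, Ccne1 and Ccne2 with their kinase Cdk1, the mitotic kinase Aurka, the checkpoint gene Bub1b, the spindle genes Kif11, Kif23, Prc1 and Stmn1, and the chromosome genes Top2a and Cenpa. Mcm5, Mcm6, Aurkb, Ube2c and Tpx2 were called with NKp46 and DNAM-1 antibodies alone, which does not show that they differed between the pairs. Libraries are given in the order of their numbers below, for medium, for NKp46 with NKG2D and for NKp46 with DNAM-1.

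The median log2 change of the 13 genes of origin licensing and the replication fork was 0.90 and 0.99, below that of the whole group. Mki67 was at 12.8, 38.3 and 81.6 TPM in medium, 60.8, 94.2 and 177 TPM with NKG2D and 96.3, 101 and 199 TPM with DNAM-1 (log2 changes 1.52 and 1.82, limma adjusted p = 0.274 and 0.171, and 0.0418 and 0.0157 with the block). Pcna was at 182, 299.7 and 347 TPM in medium, 329.9, 455 and 638 TPM with NKG2D and 416, 479 and 632 TPM with DNAM-1 (0.78 and 0.91, limma adjusted p = 0.242 and 0.148, and 0.0168 and 0.0073 with the block). Each antibody library was above the medium library of its number, while the groups overlapped between numbers for NKG2D. Mcm5 was at 65.5, 98.0 and 121 TPM in medium, 144, 129 and 177 TPM with NKG2D and 138, 160 and 181 TPM with DNAM-1 (0.69 and 0.78, with limma adjusted p = 0.0620 and 0.0305 in the blocked fit). Its groups did not overlap. Mcm6 was at 83.8, 138 and 193 TPM in medium, 209.9, 205 and 256 TPM with NKG2D and 215, 222 and 279 TPM with DNAM-1, and Mcm2 at 32.4, 51.0 and 62.7 TPM in medium, 89.0, 86.4 and 103 TPM with NKG2D and 84.9, 87.6 and 114 TPM with DNAM-1. Both were higher in each antibody library than in each medium library. Rrm1, which makes deoxynucleotides, was at 30.4, 59.1 and 73.2 TPM in medium, 93.1, 97.7 and 169.8 TPM with NKG2D and 92.9, 118 and 173 TPM with DNAM-1. Gins1 and Gins2, of the same role, were not above the medium library of their number in 3 of 3 libraries with NKG2D. Cdt1, which loads the helicase before S phase, had the lowest change of the 50 genes in both comparisons (-0.12 and 0.20, limma adjusted p = 0.859 and 0.735). It was at 36.6, 67.3 and 82.0 TPM in medium, 50.8, 54.9 and 56.7 TPM with NKG2D and 70.0, 58.8 and 74.2 TPM with DNAM-1. Medium spanned the values of both antibody groups for Cdt1.

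Cyclins, kinases and spindle genes had larger median changes than the replication genes, and the roles were not tested against each other. Among the other roles, the proliferation marker and regulators had medians of 0.79 and 1.24, and the deoxynucleotide genes 1.06 and 1.30. The checkpoint and anaphase-promoting complex genes had medians of 1.24 and 1.41, and the chromosome and centromere genes 1.115 and 1.18. The 8 cyclin and CDK genes had median changes of 1.34 and 1.60, the 4 mitotic kinases and chromosomal passenger genes 1.60 and 2.10, and the 9 spindle and cytokinesis genes 1.42 and 1.54. Cdk1, the kinase that starts mitosis, was at 19.4, 7.36 and 47.6 TPM in medium, 62.6, 49.7 and 181 TPM with NKG2D and 52.7, 72.6 and 151 TPM with DNAM-1 (2.05 and 2.06, limma adjusted p = 0.204 and 0.163, and 0.0217 and 0.0142 with the block). Its partner Ccnb1 was at 8.59, 14.9 and 21.6 TPM, 23.8, 27.1 and 46.3 TPM, and 28.9, 30.6 and 55.9 TPM (1.09 and 1.32, and limma adjusted p = 0.0354 and 0.0129 with the block). The antibody libraries lay above each medium library for both genes. Ccna2, cyclin A2, was at 13.6, 12.6 and 44.7 TPM in medium, 35.9, 46.6 and 102 TPM with NKG2D and 52.2, 70.0 and 110.0 TPM with DNAM-1. Prc1, which bundles microtubules in cytokinesis, had the smallest p of the group in both comparisons, at 17.7, 11.4 and 22.2 TPM in medium, 35.2, 43.7 and 62.4 TPM with NKG2D and 43.9, 42.1 and 67.1 TPM with DNAM-1 (1.42 and 1.54, limma adjusted p = 0.0833 and 0.0504, and 0.0171 and 0.0099 with the block). Its medium libraries all lay below the antibody libraries. Top2a was at 18.1, 48.5 and 141 TPM in medium, 115, 150.1 and 281 TPM with NKG2D and 157, 174 and 307 TPM with DNAM-1 (1.73 and 2.00, and limma adjusted p = 0.0418 and 0.0177 with the block). Stmn1 was at 64.0, 101 and 238 TPM, 212, 242 and 392 TPM, and 284, 279 and 405 TPM (1.23 and 1.45, and limma adjusted p = 0.0392 and 0.0156 with the block). For Top2a and Stmn1 the third medium library lay within the NKG2D range and below the DNAM-1 range. Cenpa, which ionomycin also raised, was at 78.1, 76.2 and 101 TPM in medium, 118, 141 and 189 TPM with NKG2D and 146, 139.5 and 194 TPM with DNAM-1 (0.79 and 0.90). Plk1, the Polo-like kinase, was at 0.23, 6.24 and 17.8 TPM in medium, 14.3, 21.4 and 36.4 TPM with NKG2D and 23.3, 16.7 and 37.9 TPM with DNAM-1 and was not called with or without the block.

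**Figure D4:**
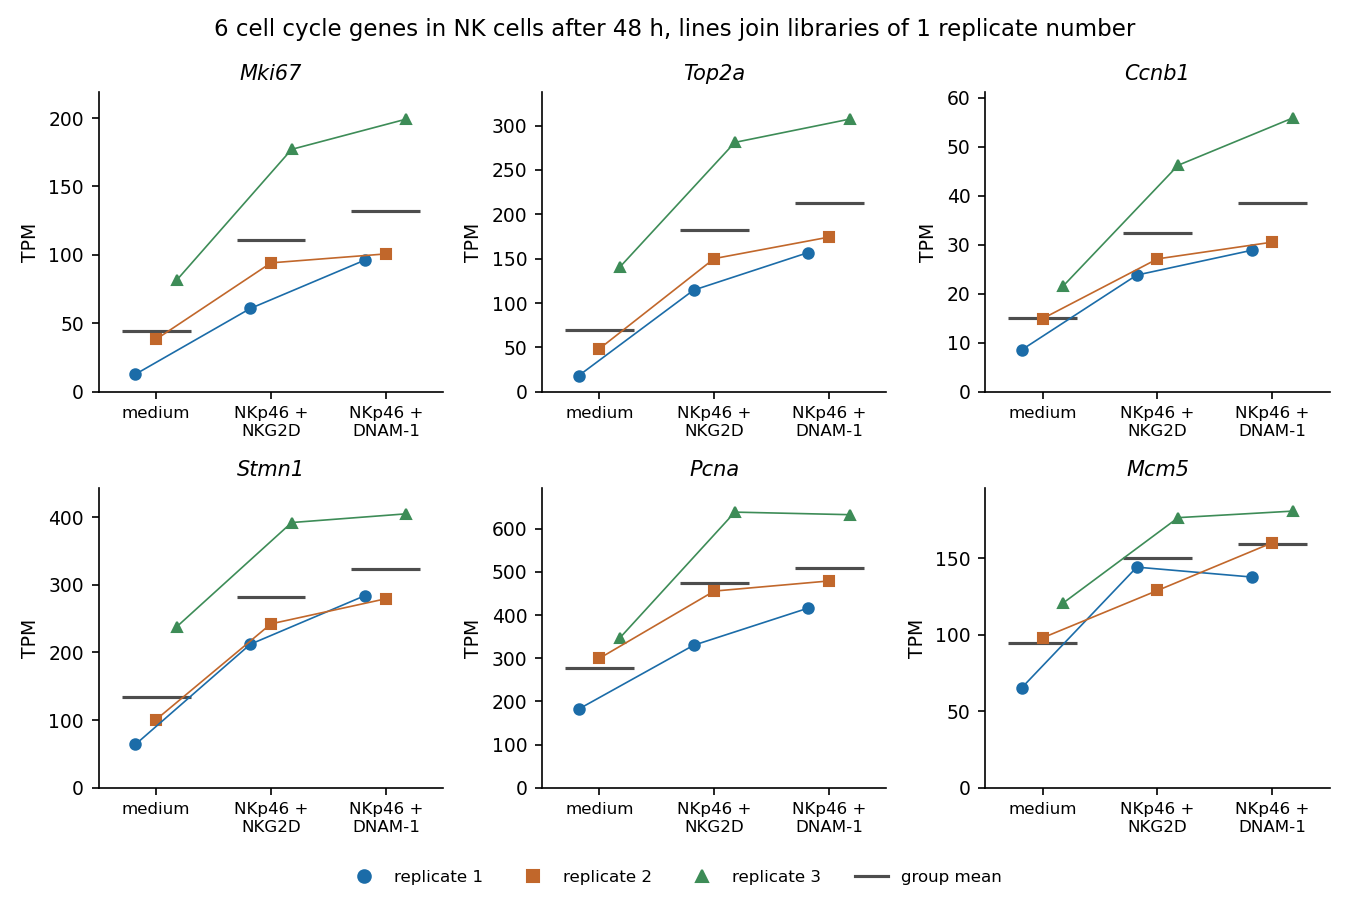
TPM (y axis, linear from 0, with a scale of its own in each panel) of 6 genes after 48 h in medium or with 1 of 2 antibody pairs (x axis), with points for the 3 replicates, a bar for the group mean and lines joining libraries of 1 number. The medium library of each number is the lowest of its line in the 6 panels.

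The antibody pairs did not separate from each other. NKp46 with NKG2D against NKp46 with DNAM-1 called 0 of 50 (limma, 0.0146% of all tested genes), with 0 at an unadjusted p under 0.05 (1.22% of all tested genes), and 46 changes were negative with a median of -0.23. Mybl2, the transcription factor B-MYB (-0.69, SE 0.439), Cks2, a CDK-binding subunit (-0.40, SE 0.302), and Cdt1 (-0.31, SE 0.255) had the smallest p values. NK marker sums were alike in the 3 groups, at 4778 to 5189 TPM, and T cell markers summed to 27.6 to 71.6 TPM in medium and 20.1 to 39.6 TPM with antibodies. B and plasma cell markers summed to 183.5 to 223 TPM in medium and 124 to 179.8 TPM with antibodies, with no overlap. Of these 7 markers, 2 to 3 were above 0 in each medium library and 2 to 5 in each antibody library. Antibody libraries listed 16107 to 18096 genes above 0 and medium libraries 13555 to 14674, and the part of these differences in the results was not tested.

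**Figure D5:**
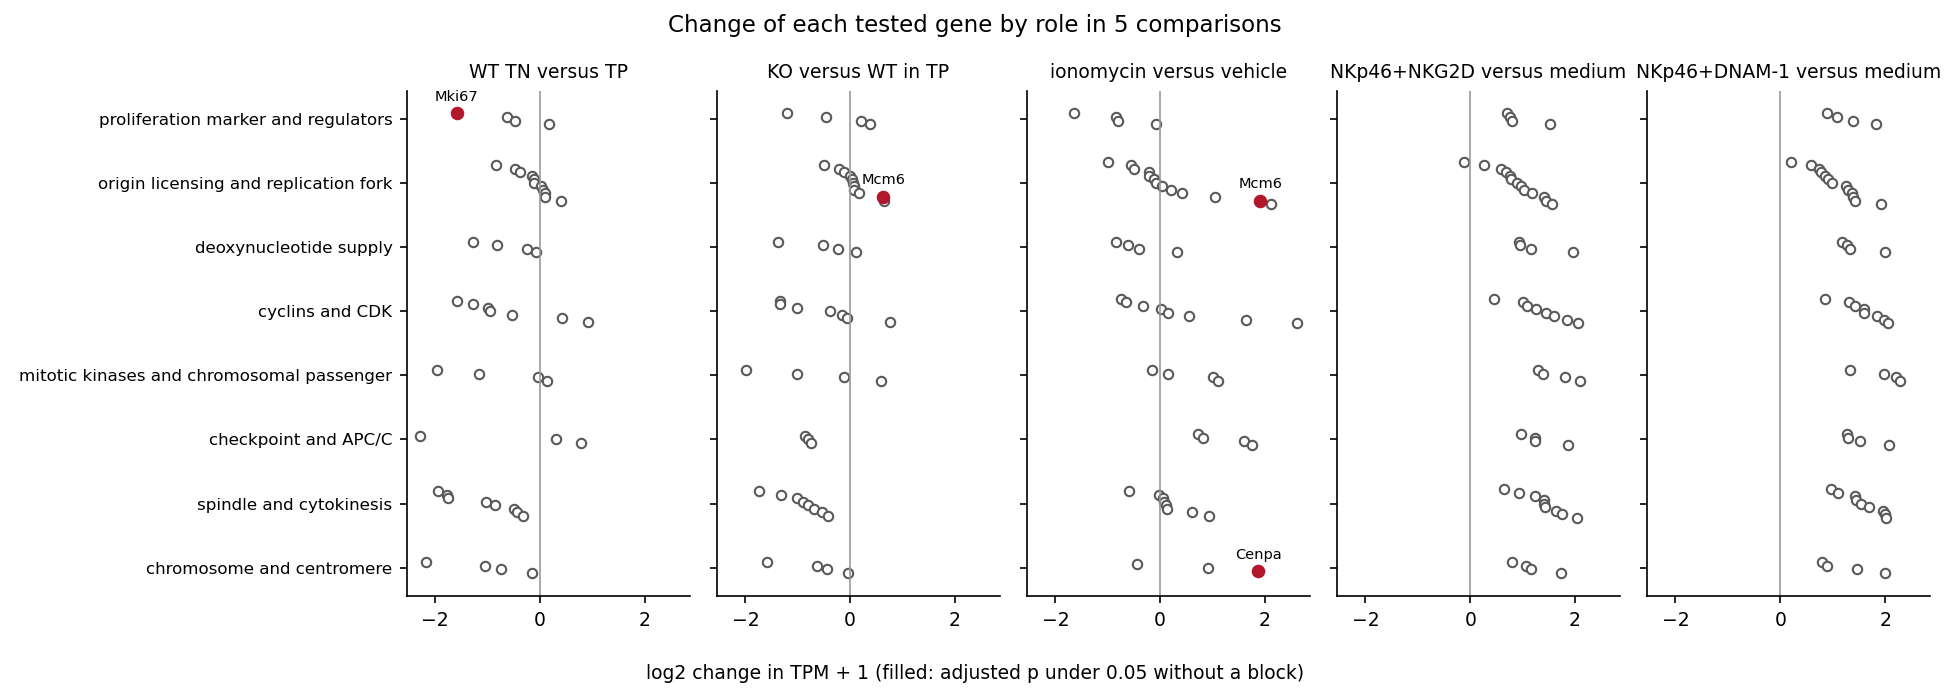
Log2 change in TPM + 1 (x axis) of each tested gene in 5 comparisons (panels), in rows by role (y axis), with filled and named points for genes with an adjusted p under 0.05 without a block. Points lie right of 0 for 49 and 50 of 50 genes in the antibody panels, with 0 called, and on both sides in the others.

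Other cell cycle genes were read from a list of 96, grouped as G1 control, CDK inhibitors and antiproliferative genes, replication, and mitosis. In WT TN against TP, 85 were tested and limma called 3 (1.31% of all tested genes). Gadd45g, a stress-induced growth inhibitor, fell by 1.79 (adjusted p = 0.0482), from 22.5, 24.8 and 37.3 TPM in TP to 2.84, 15.0 and 8.03 TPM in TN. Ccnd3, cyclin D3, fell by 0.42 (adjusted p = 0.0223), from 693, 655 and 574 TPM to 481, 482 and 468 TPM, and Myc, a transcription factor that drives growth, rose by 0.76 (adjusted p = 0.0389), from 36.5, 41.2 and 26.2 TPM to 53.9, 64.3 and 57 TPM. TP and TN did not overlap for these genes. The other 5 subset comparisons within a genotype, the 3 between genotypes and the interactions called 0 of 85 (limma). At an unadjusted p under 0.05, KO SP cells had 7 genes higher and 10 lower than WT SP cells (11.7% of all tested genes in either direction). KO TP cells had 3 higher and 11 lower than their WT counterpart (11.8%), and KO TN cells 9 and 5 (10.5%). The interactions had 6 higher and 4 lower for TN against TP (6.27%), and 5 and 1 for SP against TP (4.41%). WT SP against TP gave 3 higher and 5 lower (7.71%), and its KO counterpart 0 and 1 (2.93%). TN against SP gave 3 and 6 among WT libraries (12.1%), 1 and 0 among KO libraries (2.77%). KO TN against TP gave 2 higher and 4 lower (6.43%).
With ionomycin, 87 were tested, and limma called 2 higher and 3 lower (2.91% of all tested genes in either direction). Wee1, a kinase that restrains Cdk1, rose by 2.95 (adjusted p = 0.0205), from 1.39 ± 0.609 to 17.1 ± 1.21 TPM (SD, n = 3, limma). The kinesin Kif15 rose by 7.98 (limma, adjusted p = 0.000423), from 2.93, 0.16 and 0 TPM to 334, 461 and 468 TPM. The 3 genes that fell were Ccnd3, which fell by 1.89 (adjusted p = 0.0313) from 531, 559 and 228 TPM to 141, 86.0 and 107 TPM, Btg1, an antiproliferative gene, which fell by 1.77 (adjusted p = 0.0383) from 2638, 2293 and 938 TPM to 521, 565 and 481 TPM, and Cdkn2d, an inhibitor of D-type cyclin kinases, which fell by 1.69 (adjusted p = 0.0131), from 94.4, 89.0 and 89.7 TPM to 27.4, 33.4 and 22.8 TPM. Both antibody pairs lowered Btg2, an antiproliferative gene, and limma called it alone among 93 tested (0.431% and 0.782% of all tested genes). It was at 387, 323 and 302 TPM in medium, 128, 141 and 128 TPM with NKG2D and 147, 151 and 149.6 TPM with DNAM-1, and it fell by 1.34 (adjusted p = 0.000596) and 1.16 (adjusted p = 0.00119). With the block, 7 of the 93 were called higher with NKG2D (0.986% of all tested genes), each from the mitosis list, and 18 with DNAM-1 (2.02%), which included the replication genes Pole and Gmnn and the G1 factor E2f1.

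Tumour NK cells had no comparison group, and their 3 libraries differed among themselves. The first was lowest in several mitotic genes. Ccna2 was at 0.18, 23.5 and 26.3 TPM, Ccnb1 at 1.58, 23.6 and 19.3 TPM, Cdk1 at 4.09, 59.3 and 75.7 TPM and Birc5, the passenger protein survivin, at 3.41, 25.6 and 25.2 TPM. Ube2c was listed at 0 TPM in the first library and at 21.3 and 19.0 TPM in the others. The range was narrow for other genes, which were chosen after their values were seen, as were those above, with Cenpa at 84.8 to 104 TPM, Aurkb at 10.5 to 15.0 TPM, Pcna at 291, 353 and 310.05 TPM, Mcm5 at 26.0, 26.7 and 32.5 TPM and Mcm6 at 155, 175 and 117 TPM. It was wide for the replication genes Gins2, at 3.67 to 24.2 TPM, and Cdc45, at 6.25 to 23.5 TPM. Mki67 was at 6.90, 21.2 and 13.3 TPM, Top2a at 33.8, 71.3 and 37.8 TPM and Stmn1 at 75.4, 95.2 and 63.7 TPM. The second library was the highest in these 3, and the first was the lowest in 2 of them. The 6 markers of tumour epithelium and stroma summed to 31.9, 925 and 753 TPM and the 5 erythroid markers found to 0, 209 and 335 TPM, highest in the libraries in which Ccna2, Ccnb1, Cdk1, Birc5 and Ube2c were higher. Macrophage and monocyte markers were highest in the first library, at 65.1, 24.6 and 18.8 TPM, as were B and plasma cell markers, at 164.6, 132.1 and 113.1 TPM. The part of these marker groups in the values of those genes was not tested.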

How the data were processed

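Messenger RNA libraries (KAPA mRNA HyperPrep, per the labels' protocols) of 36 samples were deposited by the authors as 4 tables of TPM, with 2 decimals. Per the submitters' processing notes the tools included STAR and RSEM and the build GRCm39; their roles, versions and the annotation are not given in the sources used here. Libraries sum to 1000000 TPM except in the subset table, whose 32940 rows sum to 934292 to 948786. TPM keep no depth, so precision comes from 3 replicates per group. The 50 genes and all lists were chosen with earlier results of these data known.

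Groups followed titles, or the named columns in the antibody table. Genes with a table mean of at least 1 TPM were tested on log2(TPM + 1) with limma 3.58.1 (R 4.3.3), group means of a table sharing 1 variance with an intensity trend, two-sided, with Benjamini-Hochberg adjustment over all tested genes, and called at an adjusted p under 0.05. An exact permutation test of 3 against 3 cannot go below p = 0.1. The fits were tested on simulated data. Called members were named, 6 fixed genes were given in each table, and otherwise the 3 smallest p values were named; tumour genes and Cdt1, Plk1 and other antibody examples were chosen after their values were seen. Same-numbered antibody libraries had a mean correlation of deviations of 0.064 against -0.032 for others, with 1 of 9 pairs over 0.1; the pairing is read from column names. Alternatives changed the pseudocount, filter, scaling, trend, samples and block. No column of another sample was present.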

Additional observations from a re-analysis of the deposited data

How the results depend on the processing

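Counts of called genes rest on small groups and low TPM, and depth is unknown. For WT TN against TP the count of 1 became 2 with a pseudocount of 0.1, 4 with no filter, 2 with median-of-ratios scaling, 3 with no variance trend and 0 with only the compared groups in the fit, and leaving out 1 library gave 0 to 1. For KO against WT in TP it became 2 with no trend and 0 with only the compared groups; in SP it was 0 to 1 with 1 library left out; in TN it was 0 with only the compared groups. For ionomycin it became 1 with no trend, and 0 to 3 with 1 library left out. For NKp46 with NKG2D against medium the count of 0 became 20 with the replicate block and 0 to 6 with 1 library left out. For NKp46 with DNAM-1 it became 1 with the smaller pseudocount, 1 with median-of-ratios scaling, 1 with quantile normalization, 25 with the replicate block and 0 to 17 with 1 library left out. The causes were not tested, and a smaller fit has fewer residual degrees of freedom. Apart from the fits with no filter and with the replicate block, shares of all tested genes are not given for these alternatives. Prc1 turned to -0.12 for NKp46 with NKG2D under the titles' grouping.

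The replicate block changed no other count of the 50 genes, and of the wider list it added Gadd45g to the genes lower with ionomycin (adjusted p = 0.0649 without and 0.00615 with the block, limma), 4 in place of 3. Among same-numbered pairs, 0 of 18 from the sorted subsets and 1 of 3 from the ionomycin cultures correlated over 0.1, and the block gave 1 gene for WT TN against TP and 2 for ionomycin. Between genotypes no paired fit was possible because the numbers lie within a genotype. The other 184 recomputed counts stayed within 1.5 times.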
